A study of Homo sapiens with 9 samples.

Results

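The genes described here are 54 human genes that copy DNA or that the E2F transcription factors are known to switch on before S phase, and their transcripts were counted in A498 cells depleted of BMAL1 or ARNT. They were picked by name for their known roles in origin licensing, helicase activation, DNA synthesis, deoxynucleotide supply, chromatin copying, E2F control and fork repair. Membership rests on names alone, with no threshold on a measured value, although the list was drawn up with earlier results of these data known. Of the 54 genes, 53 had a row among the 27673 genes of the count table, and all 53 passed the filter on low counts that left 15551 genes for testing. PRIM2 had no row under its name and has no values below.

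A498 cells are a long established line from a human ccRCC (clear cell renal cell carcinoma), and all 9 libraries carried the genotype label WT. The cells had been infected with a lentivirus made in HEK293T cells from the PLKO.1 vector, which carried a control short hairpin RNA (shControl), a hairpin against BMAL1 (shBMAL1) or a hairpin against ARNT (shARNT), and all groups were kept under puromycin. Each group had 3 libraries labelled as biological replicates, and each target had 1 label for its hairpin, so a change caused by a hairpin outside its target cannot be told apart from a change caused by the depletion. BMAL1 pairs with CLOCK to drive the circadian clock, ARNT usually pairs with the hypoxia-inducible factors, and the study asked how far depletion of each changes transcription in ccRCC cells.

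In each cell cycle, the origin recognition complex, CDC6 and CDT1 load the MCM2-7 helicase onto DNA in G1, and geminin (GMNN) blocks CDT1 once S phase has begun. MCM10, CDC45 and the GINS complex then activate the helicase, the polymerases copy both strands with the sliding clamp PCNA and its loader RFC, and RRM1, RRM2, TYMS and TK1 supply the deoxynucleotides. Most of these genes are transcribed in late G1 and S phase under activating E2F factors such as E2F1 and E2F2, and E2F7 and E2F8 repress the same genes later in S phase.

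Promoter letters that E2F factors are known to bind are shown for members whose levels are described below, because E2F factors are the known regulators of these genes. The windows come from the RefSeq promoters of GRCh38.p14, run 5′ to 3′ on the strand of the gene, and lie before the annotated start. Capitals mark the match to TTTCGCGC, TTTCCCGC, TTTGGCGC or TTTGCCGC, or to the reverse complement of these letters, and positions are counted from the start of the gene.
E2F1, chr20:33686387-33686416, minus strand, match at -20 to -13: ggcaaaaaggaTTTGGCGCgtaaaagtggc
E2F2, chr1:23531257-23531286, minus strand, match at -42 to -35: gcggcacgacgTTTGGCGCtaaaaaaaaaa
CDT1, chr16:88803743-88803772, plus strand, match at -35 to -28: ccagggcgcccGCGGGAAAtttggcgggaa
GMNN, chr6:24775322-24775351, plus strand, match at -80 to -73: gctgggtcggtTTTGGCGCgctctcacttc
GINS2, chr16:85688967-85688996, minus strand, match at -31 to -24: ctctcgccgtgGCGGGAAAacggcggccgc
POLA2, chr11:65261898-65261927, plus strand, match at -53 to -46: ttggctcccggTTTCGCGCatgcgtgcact
PCNA, chr20:5126663-5126692, minus strand, match at -59 to -52: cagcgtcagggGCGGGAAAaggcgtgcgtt
RFC3, chr13:33818083-33818112, plus strand, match at -55 to -48: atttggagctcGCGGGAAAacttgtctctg
TYMS, chr18:657603-657632, plus strand, match at -39 to -32: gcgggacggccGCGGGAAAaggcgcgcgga

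Over promoters from 250 bases before to 50 bases after the start, at least 1 of these E2F letters was found in 23 of the 46 members with an entry (50%) and in 1090 of 27305 genes (3.99%). The CCAAT box, the letters CCAAT, was found in 27 members (58.7%) and in 39.7% of all genes with an entry. The E-box CACGTG, which BMAL1 with CLOCK is known to bind, was found in 7 members (15.2%) and in 8.77% of all genes with an entry. The letters ACGTG, the core of the element bound by hypoxia-inducible factors, were found in 17 members (37.0%) and in 24.9% of all genes with an entry, and every CACGTG match is also a match to ACGTG. All letters were searched on both strands, and a match is a description of the sequence.

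The depth of the libraries was even, at 35269851 to 36099075 counts, and levels are given as CPM, which relate each count to the library size after TMM scaling (a trimmed mean of log ratios between libraries). In shControl the TMM factors were 0.932 to 0.944, those of shBMAL1 were 0.961 to 0.971, and shARNT had 1.10 to 1.11. BMAL1 was at 16.3 ± 0.40 CPM (SD, n = 3) in shControl, 5.02 ± 0.79 in shBMAL1 and 23.8 ± 1.3 in shARNT. ARNT was at 50.5 ± 2.2 CPM in shControl, 32.3 ± 1.5 in shBMAL1 and 9.47 ± 0.43 in shARNT, so the library labels matched the depleted transcripts, and ARNT was also lower in shBMAL1 (log2 fold change -0.65, adjusted p = 1.54e-08, edgeR quasi-likelihood test). All 8 markers of a renal carcinoma line were detected in each group, and their summed level was 7908 to 7955 CPM in shControl, 5944 to 6416 CPM in the shBMAL1 libraries and 2141 to 2296 CPM in the shARNT libraries, where VIM held most of the sum in shControl. Members of that list also moved the other way, with PAX8 at 36.0 ± 1.9 CPM in shControl and 100 ± 5.7 in shARNT, and NNMT at 103 ± 3.3 in shControl and 188 ± 13 in shBMAL1. Summed endothelial markers were at most 0.412 CPM in any library. CD68 made up nearly all of the leukocyte sum (1786 to 1905, 1753 to 1865 and 136 to 148 CPM in the same order of groups) while CD3E was at 0 throughout, and NEFL and NEFM nearly all of the sum for the embryonic kidney packaging line (337 to 344, 225 to 240 and 165 to 175 CPM) while LIN28B was at 0 throughout. The part of these marker differences in the results below was not tested. Exon bases are shared with a gene on either strand by MCM7, TYMS and CCNE2 (values below), and also by GINS1 (with NINL), PRIM1 (with NACA and HSD17B6), RFC5 (with WSB2), RPA1 (with SMYD4), RPA3 (with UMAD1), FANCD2 (with FANCD2OS), POLA2 and POLD1. Pseudogene copies are annotated for ORC1, POLD2, PCNA, RFC3, RFC5, RPA2, RPA3, FEN1, RRM2, TYMS, BRCA1 and FANCD2. How reads were divided among such genes is not given in the sources used here, so the values of these members are less certain.

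The replication genes as a group were lower in shBMAL1 and were split in shARNT. A gene counted as called when its p, adjusted by Benjamini-Hochberg over all 15551 genes, was under 0.1 in the quasi-likelihood test of edgeR. In shBMAL1 against shControl, 39 of the 53 genes were called lower (73.6%) and 4 higher, where 31.5% of all genes tested were called lower, 31.9% higher and 63.3% in either direction. The 4 higher genes became 2 without shControl replicate 1, shBMAL1 replicate 1 or shBMAL1 replicate 2. For shARNT against shControl the calls were 20 higher and 19 lower, where 40.5% of all genes were called higher, 41.3% lower and 81.8% in either direction, so these shares (37.7% and 35.8%) were a little under the background. Both comparisons use the same shControl libraries. The direct comparison of shARNT with shBMAL1 uses no shControl level, although the shControl libraries share its fit and its estimate of the spread. It called 38 genes higher in shARNT (71.7%) and 9 lower, where 40.1% of all genes were called higher, 41.1% lower and 81.2% in either direction.

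The size of the shift in shBMAL1 was similar in all of its libraries. The median log2 fold change of the 53 genes was -0.52 in shBMAL1, -0.00 in shARNT and 0.57 in the direct comparison, and the medians of all genes tested were -0.00, -0.01 and -0.01 in that order. Relative to the shControl mean, the median gene was at log2 ratios of -0.56, -0.44 and -0.50 in the 3 shBMAL1 libraries, and 45, 46 and 47 of the 53 genes lay below that mean. The 3 shARNT libraries had medians of 0.05, -0.04 and -0.01, and the shControl libraries had 0.03, -0.02 and -0.03. The summed level of the 53 genes was 2336 to 2405 CPM in shControl, only 1746 to 1802 CPM in shBMAL1, and 2277 to 2328 CPM in shARNT, so shBMAL1 did not overlap the other groups. Replicate spread was small beside this shift, with a median coefficient of variation of 5.13% in shControl, 5.22% in shBMAL1 and 4.71% in shARNT. RNA was taken from whole cultures, so fewer cells in S phase and less RNA of these genes per cell cannot be told apart.

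**Figure D1:**
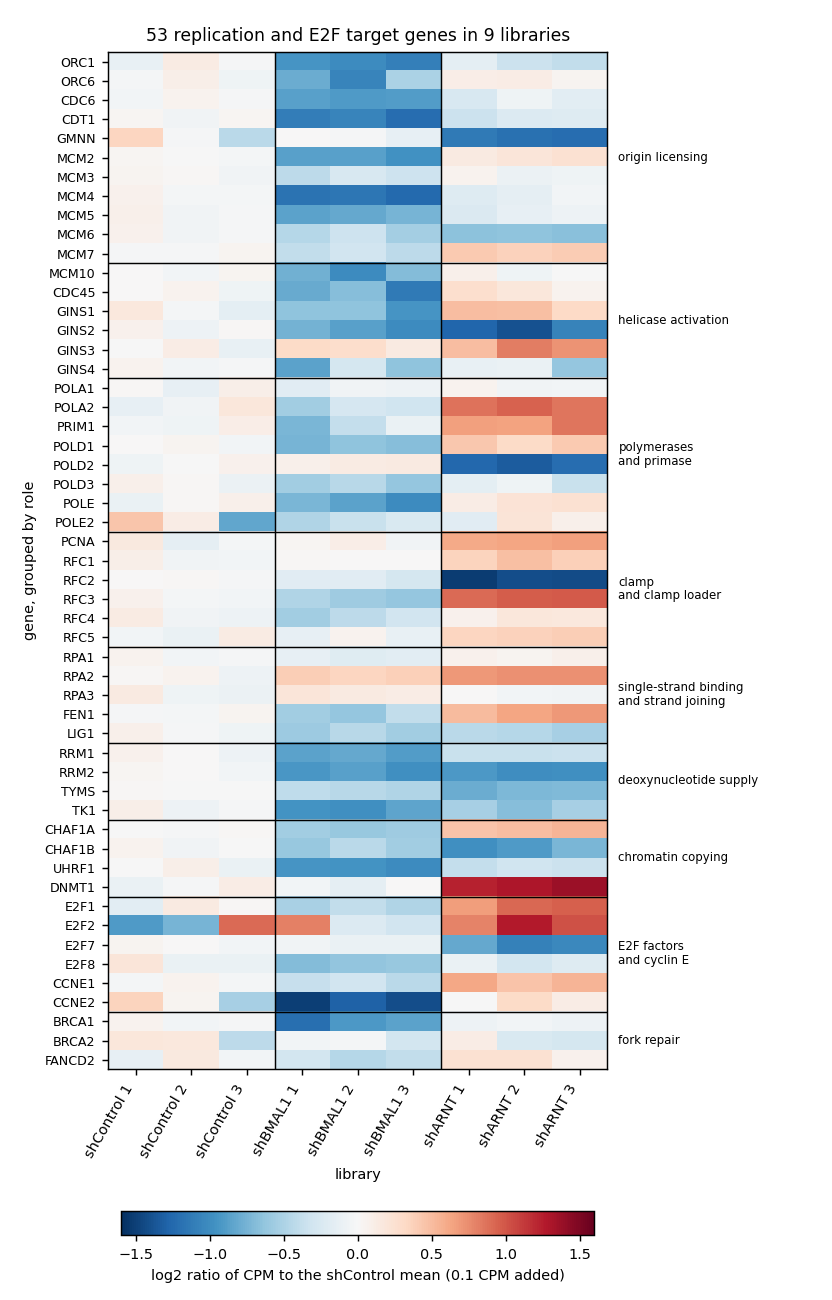
Log2 ratio of each gene's CPM (0.1 CPM added) to its shControl mean, with 1 row for each of the 53 genes, ordered by role, and 1 column for each of the 9 libraries; blue is lower and red is higher. The shBMAL1 columns are blue in most rows, with library medians of -0.56, -0.44 and -0.50, and the shARNT columns hold both colours.

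**Figure D2:**
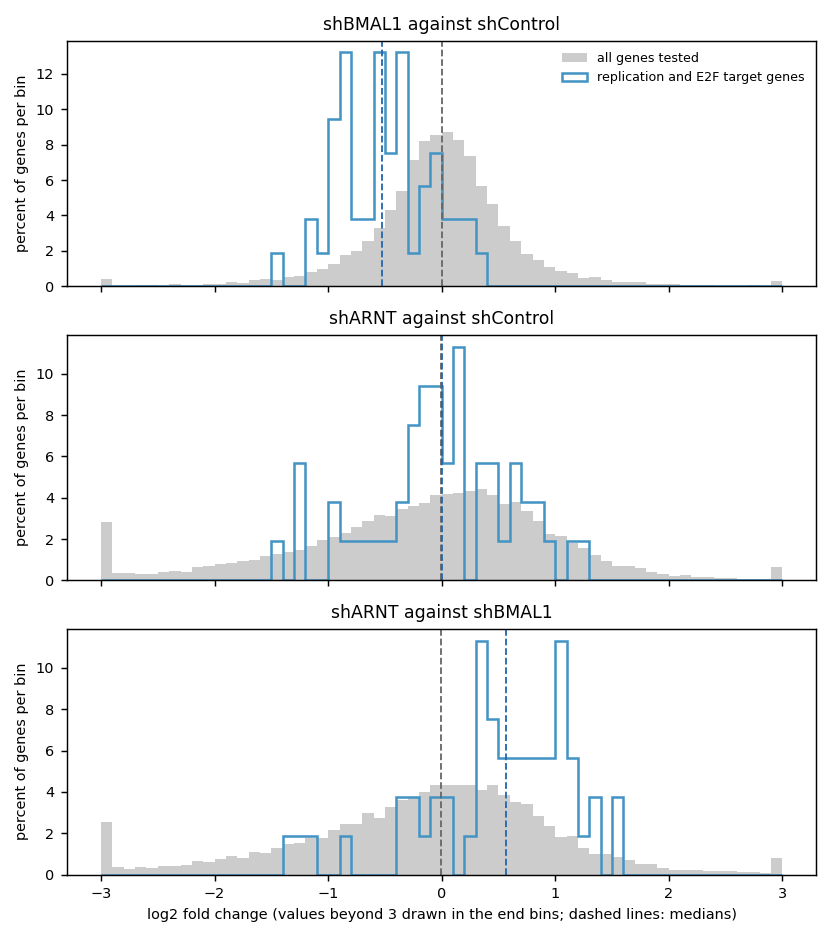
Distribution of fitted log2 fold changes (x axis) in percent of genes per bin (y axis) for all 15551 genes tested (grey) and the 53 replication and E2F target genes (blue outline), with dashed lines at the medians. The blue median lies at -0.52 for shBMAL1 against shControl, at -0.00 for shARNT against shControl and at 0.57 for shARNT against shBMAL1.

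The shARNT counts depended on how libraries were scaled. With library size alone in place of TMM, the median of all genes in shARNT against shControl moved from -0.01 to 0.23, the share of higher genes among all calls moved from 49.6% to 60.5%, and the replication genes had 31 called higher and 12 lower with a median of 0.24. Relative to all genes their median was thus near 0 under either scaling. In shBMAL1 the counts were 4 higher and 39 lower under both scalings.

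The origin licensing genes of the list fell in shBMAL1 almost without exception. Of the 11 genes, 10 were called lower in shBMAL1 (90.9%) and none higher (median log2 fold change -0.80). Among all genes tested, 31.5% were called lower there and 31.9% higher. In shARNT 7 were lower (63.6%) and 2 higher (18.2%, median -0.15), where 41.3% of all genes were lower and 40.5% higher. With library size alone, ORC1, CDC6, CDT1, MCM4 and MCM5 were not called lower in shARNT. Compared directly, 9 of the 11 were higher in shARNT than in shBMAL1 (81.8%), where 40.1% of all genes were. GMNN and MCM6 were lower, of which MCM6 was not called with library size alone (-0.03, adjusted p = 0.612). ORC1, the largest subunit of the origin recognition complex, was at 12.1, 14.3 and 12.9 CPM in shControl, 6.76, 6.44 and 6.09 in shBMAL1, and 11.7, 10.3 and 9.93 in shARNT. All shBMAL1 values lay below all others, at 49.2% of the shControl level (log2 fold change -1.02 ± 0.10, SE, adjusted p = 4.73e-08), and the smaller fall in shARNT (-0.30 ± 0.097, adjusted p = 0.00897) was not called with library size alone. ORC6, another subunit of that complex, fell in shBMAL1 (-0.77 ± 0.12, adjusted p = 8.81e-06) and had a log2 fold change of 0.09 in shARNT (adjusted p = 0.463), where it was called higher with library size alone (0.33, adjusted p = 0.00927). The subunits of that complex outside the list did not fall in shBMAL1. ORC4 and ORC5 were called higher there (0.19 and 0.26, adjusted p = 0.0198 and 0.00192), and ORC2 and ORC3 were not called (0.10 and 0.14, adjusted p = 0.164 and 0.212).

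The loading factors CDC6 and CDT1 followed the same course. CDC6 stood at 26.0, 27.8 and 26.3 CPM in shControl, 14.6, 14.1 and 14.3 in shBMAL1, and 22.3, 25.4 and 23.8 in shARNT. The shBMAL1 libraries were well apart from both other groups (log2 fold change -0.90 ± 0.071, adjusted p = 1.28e-09). The shARNT value of -0.16 ± 0.067 (adjusted p = 0.0320) lost its call without shARNT replicate 1 (adjusted p = 0.153) or shControl replicate 2 (adjusted p = 0.113), and was 0.07 with library size alone. CDT1 stood at 19.5, 18.3 and 19.4 CPM in shControl, 8.83, 9.09 and 8.17 in shBMAL1, and 15.1, 16.3 and 16.5 in shARNT. The 3 groups did not overlap, and CDT1 fell to 45.6% of control in shBMAL1 (log2 fold change -1.13 ± 0.082, adjusted p = 3.71e-10) and to 83.7% in shARNT (-0.26 ± 0.077, adjusted p = 0.00489, not called with library size alone). GMNN, the inhibitor of CDT1, had a different pattern, with 9.16, 7.08 and 5.27 CPM in shControl, 7.19, 7.08 and 6.53 in shBMAL1, and 3.21, 3.08 and 3.02 in shARNT. Only in the shARNT libraries was GMNN below every control library, at 43.3% of control (log2 fold change -1.21 ± 0.16, adjusted p = 9.37e-07), and it was lower in shARNT than in shBMAL1 (-1.16 ± 0.16, adjusted p = 1.63e-06). In shBMAL1 its log2 fold change was -0.05 ± 0.15 (adjusted p = 0.804).

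All 6 subunits of the MCM2-7 helicase were called lower in shBMAL1, where 31.5% of all genes tested were. Their log2 fold changes ranged from -1.19 for MCM4 to -0.34 for MCM3, and in shARNT from -0.66 for MCM6 to 0.40 for MCM7. MCM2 was at 94.1, 91.1 and 90.1 CPM in shControl, 50.4, 50 and 46.9 in shBMAL1, and 102, 105 and 109 in shARNT. The groups did not overlap, with MCM2 at 53.5% of control in shBMAL1 (-0.90 ± 0.048, adjusted p = 3.28e-12) and 114% in shARNT (0.19 ± 0.046, adjusted p = 0.000741). MCM4 was at 116, 108 and 108 CPM in shControl, 48.8, 49.6 and 46.9 in shBMAL1, and 95.9, 101 and 108 in shARNT. Its fall to 43.7% of control in shBMAL1 (-1.19 ± 0.052, adjusted p = 1.58e-13) was the second largest of all 53 genes. Its shARNT value of -0.13 ± 0.050 (adjusted p = 0.0250) lost its call without shARNT replicate 1 (adjusted p = 0.146) or shControl replicate 1 (adjusted p = 0.111), and was 0.11 with library size alone. MCM5 was at 76.8, 69.6 and 71.6 CPM in shControl, 40.1, 41.2 and 43.5 in shBMAL1, and 61.8, 66.5 and 68.6 in shARNT. It fell in shBMAL1 to 57.2% of control (-0.80 ± 0.056, adjusted p = 2.06e-10), and its shARNT value of -0.15 ± 0.054 (adjusted p = 0.0190) lost its call without shARNT replicate 1 (adjusted p = 0.117) and was 0.09 with library size alone.

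MCM6 and MCM7 parted from each other in shARNT. MCM6 fell in both depletions, to 73.8% of control in shBMAL1 and to 63.3% in shARNT (log2 fold change -0.66 ± 0.052, adjusted p = 4e-10), whereas MCM7 fell to 77.0% in shBMAL1 and rose to 132% in shARNT (0.40 ± 0.040, adjusted p = 1.2e-08). The subunits assemble in equal numbers, and per kb of the canonical transcript their mean shControl levels were 21.0 to 28.0 CPM per kb for MCM2 to MCM6 and 89.9 for MCM7. In shBMAL1 these levels were 11.9 to 20.7 CPM per kb and 69.2 for MCM7, and in shARNT 17.8 to 30.6 and 119 for MCM7. MCM7 shares 392 exon bases with AP4M1 on the opposite strand, and AP4M1 was lower in both depletions (log2 fold changes -0.27 and -0.26 in shBMAL1 and shARNT).

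The helicase activators also fell in shBMAL1, apart from GINS3. Of the 6 genes, 5 were called lower in shBMAL1 (83.3%) and GINS3 higher (median -0.79), where 31.5% of all genes were lower and 31.9% higher. In shARNT 2 were higher (33.3%) and 1 lower (16.7%, median 0.08), where 40.5% of all genes were higher and 41.3% lower. MCM10, which joins the helicase at firing origins, was at 9.10, 8.75 and 9.29 CPM in shControl, 5.26, 4.44 and 5.56 in shBMAL1, and 9.54, 8.60 and 8.99 in shARNT. The shBMAL1 libraries lay below all others (-0.83 ± 0.11, adjusted p = 2.26e-06), and the shARNT libraries overlapped the control ones (-0.00 ± 0.10, adjusted p = 0.996, and 0.24 with library size alone). CDC45, which binds the helicase at the fork, fell in shBMAL1 to 54.6% of control (-0.87 ± 0.11, adjusted p = 1.11e-06). Its value of 0.17 in shARNT (adjusted p = 0.139) was called higher without shARNT replicate 3 (adjusted p = 0.0806) or shBMAL1 replicate 3 (adjusted p = 0.0904) and with library size alone.

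The 4 GINS subunits, which act as a single complex, did not move together. GINS2 stood at 19.4, 17.5 and 18.7 CPM in shControl, 10.9, 10.1 and 9.20 in shBMAL1, and 7.65, 7.0 and 8.79 in shARNT. It fell in both depletions, with no overlap between the 3 groups (shBMAL1 at -0.88 ± 0.096, adjusted p = 1.58e-07, shARNT at -1.25 ± 0.098, adjusted p = 3.01e-10). GINS3 stood at 5.32, 5.77 and 4.87 CPM in shControl, 6.61, 6.5 and 5.91 in shBMAL1, and 7.55, 9.43 and 8.84 in shARNT. Its rise in shARNT (0.69 ± 0.12, adjusted p = 2.26e-05) was larger than that in shBMAL1 (0.25 ± 0.12, adjusted p = 0.0846), with a direct difference of 0.44 (adjusted p = 0.00185). The shBMAL1 rise was lost without shControl replicate 1 (adjusted p = 0.135), shControl replicate 3 (0.243), shBMAL1 replicate 1 (0.187) or shBMAL1 replicate 2 (0.170), and in the DESeq2 test (0.124). GINS1 fell in shBMAL1 (-0.74 ± 0.11, adjusted p = 5.63e-06) and rose in shARNT (0.43 ± 0.098, adjusted p = 0.000487). GINS4 fell in shBMAL1 (-0.59 ± 0.18, adjusted p = 0.00729) and had a log2 fold change of -0.27 in shARNT (adjusted p = 0.152). In the direct comparison GINS4 was at 0.32 (adjusted p = 0.105) and was called higher without shARNT replicate 3 (adjusted p = 0.0195) or shBMAL1 replicate 2 (adjusted p = 0.0227), with DESeq2 size factors (adjusted p = 0.0940), with library size alone (0.51, adjusted p = 0.0132) and without the low-count filter (adjusted p = 0.0993).

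**Figure D3:**
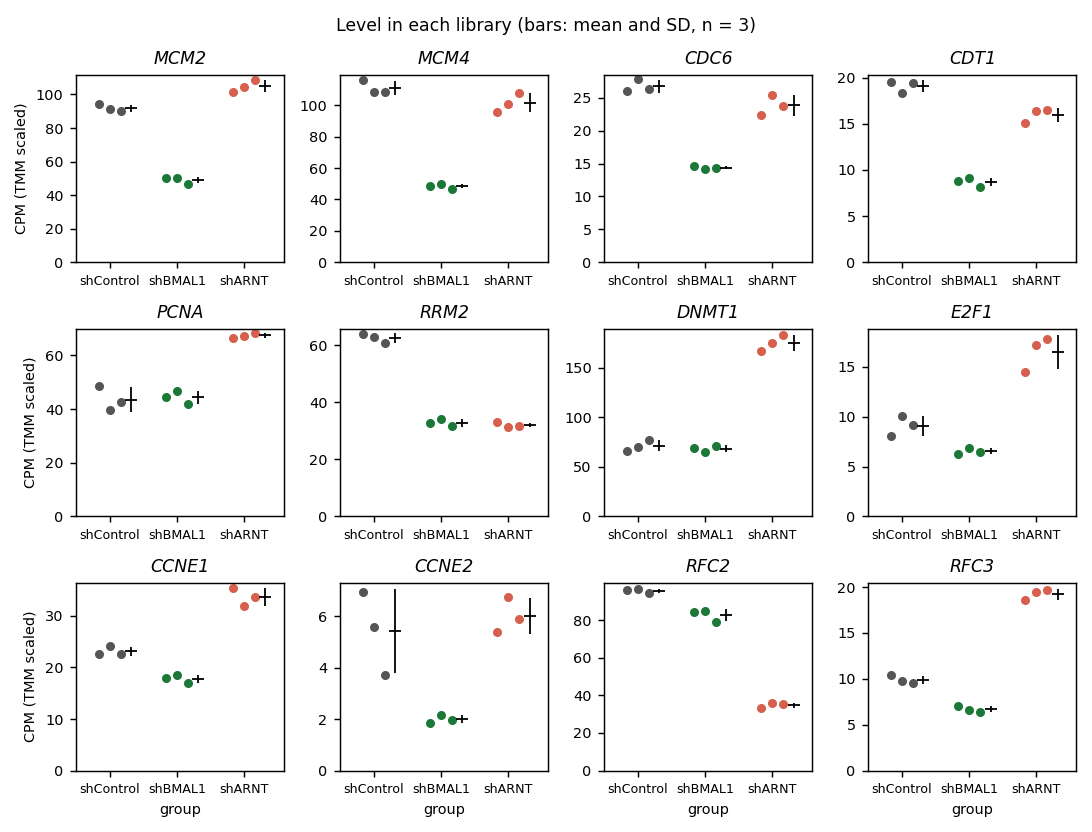
CPM (y axis, from 0) of 12 genes in the 3 libraries of shControl (grey), shBMAL1 (green) and shARNT (red), with crosses for the mean and SD (n = 3). MCM2, MCM4, CDC6 and CDT1 are lowest in shBMAL1, RRM2 is low in both depletions, DNMT1, PCNA and E2F1 are highest in shARNT, and RFC2 and RFC3 lie at opposite ends in shARNT (34.8 and 19.2 CPM against 95.7 and 9.89 in shControl).

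Among the polymerases and primase, 5 of the 8 genes with values were called lower in shBMAL1 (62.5%) and 1 higher (12.5%, median -0.39). In shARNT 4 were higher (50%) and 2 lower (25%, median 0.12). The shares of all genes tested were 31.5% lower and 31.9% higher in shBMAL1, and 40.5% higher and 41.3% lower in shARNT. POLA2, the accessory subunit of the polymerase that starts each new strand with the primase, was at 10.7, 11.3 and 13.3 CPM in shControl, 7.98, 9.75 and 9.41 in shBMAL1, and 21.5, 22.6 and 21.4 in shARNT. The groups did not overlap, with a rise to 186% of control in shARNT (0.89 ± 0.092, adjusted p = 2.26e-08) and a fall to 77.0% in shBMAL1 (-0.38 ± 0.099, adjusted p = 0.00287). PRIM1, the catalytic primase subunit, rose in shARNT as well (0.73 ± 0.15, adjusted p = 0.000136), and its shBMAL1 value of -0.39 (adjusted p = 0.0411) was not called without shBMAL1 replicate 1 (adjusted p = 0.216) or shControl replicate 3 (adjusted p = 0.125). POLA1, the catalytic subunit of the same complex, had log2 fold changes of -0.11 after BMAL1 depletion (adjusted p = 0.322) and -0.02 after ARNT depletion (adjusted p = 0.870, and 0.22 with library size alone). POLE, the catalytic subunit of the leading strand polymerase, fell in shBMAL1 to 54.9% of control (-0.86 ± 0.067, adjusted p = 1.04e-09) and rose to 115% in shARNT (0.20 ± 0.064, adjusted p = 0.00884). Its partner POLE2 had only 0.848 to 2.19 CPM in shControl and was called in neither depletion, but was called lower in shBMAL1 (-0.69, adjusted p = 0.0253) without shControl replicate 3, and higher in shARNT than in shBMAL1 (0.43, adjusted p = 0.0897) without that library, with library size alone (0.62, adjusted p = 0.0495) and in the fit of 6 libraries (0.42, adjusted p = 0.0904).

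Polymerase delta, which copies the lagging strand, had subunits that moved in opposite directions. POLD1, its catalytic subunit, fell in shBMAL1 to 61.9% of control (-0.69 ± 0.054, adjusted p = 1.03e-09) and rose in shARNT to 131% (0.39 ± 0.051, adjusted p = 8.67e-07). POLD2, an accessory subunit, was at 201, 210 and 219 CPM in shControl, 223, 230 and 231 in shBMAL1, and 87.7, 83.4 and 90.2 in shARNT. It thus fell to 41.5% of control in shARNT (-1.27 ± 0.044, adjusted p = 5.41e-16). In shBMAL1 it was at 109% (0.12 ± 0.043, adjusted p = 0.0205), a rise that was not called without shControl replicate 1 (adjusted p = 0.108). POLD3, another accessory subunit, fell in shBMAL1 (-0.54 ± 0.085, adjusted p = 1.62e-05). Its shARNT value of -0.19 (adjusted p = 0.0416) lost its call without shARNT replicate 3 (adjusted p = 0.235) or shControl replicate 1 (adjusted p = 0.142), and was 0.05 with library size alone.

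The clamp and its loader had the largest share of genes called higher in shARNT among the roles. There 4 of 6 were higher (66.7%) and 1 lower (16.7%, median 0.39), where 40.5% of all genes were higher and 41.3% lower. In shBMAL1 3 were lower (50%) and none higher (median -0.14), where 31.5% of all genes were lower and 31.9% higher. PCNA was at 48.5, 39.5 and 42.5 CPM in shControl, 44.5, 46.8 and 42.0 in shBMAL1, and 66.4, 67.3 and 68.5 in shARNT. The shARNT libraries were above all others (0.63 ± 0.064, adjusted p = 1.71e-08), and shBMAL1 overlapped shControl (0.03 ± 0.065, adjusted p = 0.716). RFC3, a small loader subunit, was at 10.4, 9.72 and 9.57 CPM in shControl, 7.05, 6.62 and 6.41 in shBMAL1, and 18.6, 19.4 and 19.7 in shARNT. It fell to 67.7% of control in shBMAL1 (-0.56 ± 0.090, adjusted p = 2.17e-05) and rose to 194% in shARNT (0.96 ± 0.082, adjusted p = 1.4e-09), and no groups overlapped. RFC2, another small subunit of the same loader, was at 95.8, 96.7 and 94.5 CPM in shControl, 84.1, 84.7 and 78.8 in shBMAL1, and 33.2, 35.8 and 35.4 in shARNT. Its fall to 36.4% of control in shARNT (-1.46 ± 0.050, adjusted p = 3.77e-16) was the largest of the 53 genes there, and in shBMAL1 it was at 86.3% (-0.21 ± 0.047, adjusted p = 0.000684). The large subunit RFC1 rose in shARNT (0.41 ± 0.048, adjusted p = 1.46e-07) and was at 0.01 in shBMAL1 (adjusted p = 0.847). RFC5 rose in shARNT (0.38 ± 0.084, adjusted p = 0.000419) and was at -0.06 in shBMAL1 (adjusted p = 0.592). RFC4 fell in shBMAL1 (-0.42 ± 0.087, adjusted p = 0.000298) and was at 0.14 in shARNT (adjusted p = 0.118), where it was called higher without shControl replicate 1 (adjusted p = 0.0354) or shARNT replicate 1 (adjusted p = 0.0842) and with library size alone.

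The proteins that coat single strands and join fragments gave a mixed picture. In shBMAL1 2 of 5 genes were higher (40%) and 3 lower (60%), where 31.9% of all genes were higher and 31.5% lower. In shARNT 2 were higher (40%) and 1 lower (20%), where 40.5% of all genes were higher and 41.3% lower. RPA2, a subunit of the single-strand binding protein RPA, was at 22, 22.4 and 20.5 CPM in shControl, 28.3, 27.5 and 28.1 in shBMAL1, and 35.1, 36.0 and 35.8 in shARNT. It rose in both depletions without overlap of the groups (shBMAL1 at 0.37 ± 0.060, adjusted p = 2.18e-05, shARNT at 0.72 ± 0.059, adjusted p = 5.92e-10), and was the gene with the largest rise in shBMAL1. RPA3, the smallest subunit, was at 28.9, 24.9 and 24.5 CPM in shControl, 29.8, 28.9 and 28.4 in shBMAL1, and 26.2, 25.3 and 25.1 in shARNT. Its shBMAL1 libraries overlapped shControl, and the value of 0.15 ± 0.068 (adjusted p = 0.0587) was not called without shControl replicate 2 (adjusted p = 0.203), shControl replicate 3 (0.229), shBMAL1 replicate 1 (0.147) or shBMAL1 replicate 2 (0.105), and was 0.23 without shControl replicate 1. Its shARNT value was -0.03 (adjusted p = 0.693), and 0.21 with library size alone. RPA1, the large subunit, fell to 89.3% of control in shBMAL1 (-0.16 ± 0.041, adjusted p = 0.00184), and was at 0.07 in shARNT (adjusted p = 0.144, called higher without shControl replicate 1 with adjusted p = 0.0520, and with library size alone). The flap nuclease FEN1 fell in shBMAL1 (-0.52 ± 0.080, adjusted p = 1.21e-05) and rose in shARNT (0.62 ± 0.075, adjusted p = 2.63e-07), whereas the ligase LIG1 fell in both (-0.53 ± 0.053 and -0.47 ± 0.053, adjusted p = 5.07e-08 and 7.59e-08).

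Deoxynucleotide supply was the role in which every gene fell in both depletions. The median log2 fold change of the 4 genes was -0.89 in shBMAL1 and -0.66 in shARNT. All 4 were called lower in each, where 31.5% of all genes were called lower in shBMAL1 and 41.3% in shARNT. RRM2, the small subunit of ribonucleotide reductase, was at 63.8, 62.9 and 60.6 CPM in shControl, 32.8, 34.1 and 31.5 in shBMAL1, and 32.9, 31.4 and 31.6 in shARNT. It fell to 52.6% and 51.3% of control (-0.93 ± 0.054, adjusted p = 1.2e-11, and -0.96 ± 0.053, adjusted p = 1.07e-12), and the depleted groups overlapped each other (difference -0.04 ± 0.055, adjusted p = 0.558, and 0.15 with library size alone). TYMS, the thymidylate synthase, was at 97.6, 95.9 and 95.6 CPM in shControl, 72.9, 71.1 and 69.3 in shBMAL1, and 55.7, 58.5 and 59.2 in shARNT. It was the lowest in shARNT, at 60% of control (-0.74 ± 0.045, adjusted p = 6.13e-12), with 73.8% in shBMAL1 (-0.44 ± 0.045, adjusted p = 6.51e-08). TYMS shares 967 exon bases with ENOSF1 on the opposite strand, whose log2 fold changes were -0.19 in shBMAL1 and -0.31 in shARNT. TK1, the thymidine salvage kinase, was at 50.6, 44.7 and 46.7 CPM in shControl, 24.3, 23.9 and 26.3 in shBMAL1, and 32.8, 29.4 and 32.7 in shARNT. The 3 groups did not overlap, with 52.4% of control in shBMAL1 (-0.93 ± 0.066, adjusted p = 2.63e-10) and 66.8% in shARNT (-0.58 ± 0.064, adjusted p = 6.14e-08). RRM1, the large reductase subunit, fell to 55.2% of control in shBMAL1 (adjusted p = 3.19e-12), and shARNT brought it to 78.4% (adjusted p = 4.51e-07).

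The chromatin copying genes held the largest rise in shARNT. DNMT1, which copies DNA methylation to the new strand, was at 66.1, 70.6 and 77.1 CPM in shControl, 69.1, 64.6 and 71.3 in shBMAL1, and 168, 175 and 184 in shARNT. It rose to 246% of control in shARNT (1.30 ± 0.056, adjusted p = 1.61e-14), and shBMAL1 overlapped shControl (-0.06 ± 0.057, adjusted p = 0.380). UHRF1, which brings DNMT1 to copied DNA, fell instead, to 50.8% of control in shBMAL1 (-0.98 ± 0.083, adjusted p = 4.16e-09) and 78.5% in shARNT (-0.35 ± 0.079, adjusted p = 0.000466, not called with library size alone). CHAF1A and CHAF1B, the subunits of the histone chaperone CAF-1, fell alike in shBMAL1 (-0.58 ± 0.063 and -0.53 ± 0.074, adjusted p = 1.44e-07 and 4.13e-06). In shARNT they parted, with CHAF1A higher (0.50 ± 0.059, adjusted p = 1.83e-07) and CHAF1B lower (-0.88 ± 0.075, adjusted p = 1.22e-09).

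The E2F factors and the E-type cyclins, which work upstream of the other members, also mostly fell in shBMAL1. There 4 of 6 were called lower (66.7%) and none higher (median -0.42), where 31.5% of all genes were lower and 31.9% higher. In shARNT 3 were higher (50%) and 1 lower (16.7%, median 0.34), where 40.5% of all genes were higher and 41.3% lower. E2F1 was at 8.05, 10.0 and 9.17 CPM in shControl, 6.29, 6.88 and 6.5 in shBMAL1, and 14.5, 17.2 and 17.8 in shARNT. The 3 groups did not overlap, with a fall to 72.2% of control in shBMAL1 (-0.47 ± 0.11, adjusted p = 0.00115) and a rise to 182% in shARNT (0.86 ± 0.10, adjusted p = 1.75e-07). E2F2 had few reads, at 0.180, 0.213 and 0.878 CPM in shControl, 0.819, 0.348 and 0.323 in shBMAL1, and 0.808, 1.16 and 0.957 in shARNT, and these rest on only 6, 7 and 29 counts in shControl. Its groups overlapped, and the shARNT value of 1.20 ± 0.47 (adjusted p = 0.0264) was not called without shControl replicate 1 or 2 (0.83 and 0.88, both with adjusted p = 0.127) and was 2.29 without shControl replicate 3. Without that same library E2F2 was called higher in shBMAL1 too (1.32, adjusted p = 0.0508, against 0.23 with it). In the direct comparison E2F2 was at 0.97 (adjusted p = 0.0607), between 0.74 and 1.53 over the fits without 1 library, and not called without shARNT replicate 2, shBMAL1 replicate 2 or shBMAL1 replicate 3 (adjusted p = 0.171, 0.188 and 0.197).

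The repressors E2F7 and E2F8 differed between the depletions. E2F7 was at 11.3, 11 and 10.7 CPM in shControl, 10.6, 10.2 and 10.2 in shBMAL1, and 6.16, 5.13 and 5.34 in shARNT. It fell to 50.5% of control in shARNT (-0.99 ± 0.10, adjusted p = 1.82e-08) and had a log2 fold change of -0.09 ± 0.096 in shBMAL1 (adjusted p = 0.449), and the direct difference was -0.90 (adjusted p = 7.7e-08). E2F8 was at 6.19, 5.01 and 5.00 CPM in shControl, 3.3, 3.45 and 3.5 in shBMAL1, and 5.02, 4.37 and 4.66 in shARNT. It fell in shBMAL1 to 63.4% of control (-0.66 ± 0.14, adjusted p = 0.000364), whereas the shARNT libraries overlapped the control ones (-0.20 ± 0.13, adjusted p = 0.161), and it was higher in shARNT than in shBMAL1 (0.45, adjusted p = 0.00518).

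CCNE1 and CCNE2 encode cyclin E, which activates CDK2 at the start of S phase. CCNE1 was at 22.7, 24.1 and 22.6 CPM in shControl, 17.9, 18.6 and 17.1 in shBMAL1, and 35.5, 31.9 and 33.7 in shARNT. It fell to 77.2% of control in shBMAL1 (-0.37 ± 0.068, adjusted p = 9.22e-05) and rose to 146% in shARNT (0.54 ± 0.065, adjusted p = 2.02e-07). CCNE2 was at 6.94, 5.59 and 3.72 CPM in shControl, 1.84, 2.15 and 1.97 in shBMAL1, and 5.38, 6.75 and 5.87 in shARNT. Its fall to 36.7% of control in shBMAL1 (-1.45 ± 0.20, adjusted p = 2.53e-06) was the largest of the 53 genes, although the shControl libraries spread widely. In shARNT it was at 0.15 (adjusted p = 0.438), and was called higher without shControl replicate 1 (0.36, adjusted p = 0.0631) and with library size alone. CCNE2 shares 1629 exon bases with INTS8 on the opposite strand, and INTS8 had 1925 mean counts in shControl and was higher in shBMAL1 (log2 fold change 0.36, adjusted p = 8.49e-06), the direction opposite to that of CCNE2.

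Of the 3 fork repair genes, BRCA1 fell to 50.3% of control in shBMAL1 (-0.99 ± 0.074, adjusted p = 5.35e-10) and was at -0.07 in shARNT (adjusted p = 0.370, and 0.17 with library size alone). FANCD2, which marks stalled forks, fell in shBMAL1 (-0.38 ± 0.090, adjusted p = 0.00112). Its shARNT value of 0.19 (adjusted p = 0.0530) lost its call without shARNT replicate 1 (adjusted p = 0.143), shARNT replicate 2 (0.147), shControl replicate 1 (0.233, at 0.12) or shControl replicate 3 (0.134). BRCA2 was called in neither depletion (-0.12 and -0.13, adjusted p = 0.534 and 0.447), but was called lower in both without shControl replicate 3 (-0.29 and -0.30, adjusted p = 0.0889 and 0.0553).

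**Figure D4:**
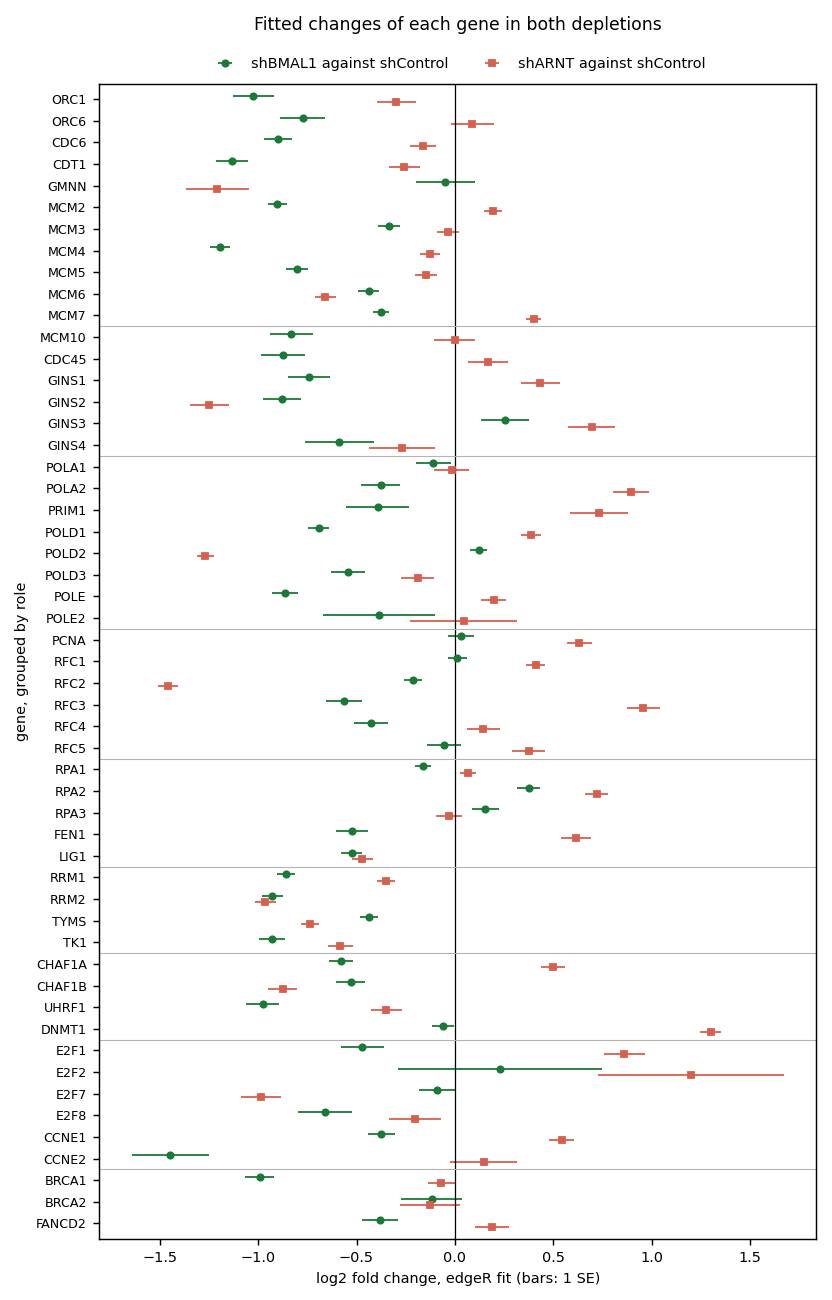
Fitted log2 fold change (x axis) of each of the 53 genes (rows, grouped by role) in shBMAL1 (green circles) and shARNT (red squares) against the same shControl libraries, with bars of 1 SE. Green points run from -1.45 (CCNE2) to 0.37 (RPA2), and red points from -1.46 (RFC2) to 1.30 (DNMT1).

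Subunits of single complexes among the members spread more widely in shARNT than in shBMAL1 in 9 of the 10 sets examined. Subunits outside the list, such as ORC2 to ORC5, POLE3 and POLE4, were left out of these sets. The range of log2 fold changes within the 5 RFC subunits was 2.42 in shARNT and 0.58 in shBMAL1. Within the 4 GINS subunits it was 1.94 and 1.13, within POLD1 to POLD3 1.66 and 0.81, within the 3 genes of the polymerase alpha and primase complex 0.91 and 0.28, and within CAF-1 1.37 and 0.05. The 6 MCM subunits had ranges of 1.06 and 0.86, and the 3 RPA subunits 0.75 and 0.54. ORC1 and ORC6 differed by 0.39 in shARNT and 0.25 in shBMAL1, and RRM1 and RRM2 by 0.61 and 0.072. The exception was POLE with POLE2, which differed by 0.15 in shARNT and 0.48 in shBMAL1. For ORC and POLE the order depends on the subunits left out. ORC3 and ORC5 were at -0.53 and 0.34 in shARNT, and at 0.14 and 0.26 in shBMAL1, where ORC1 was at -1.02. POLE3 was at 1.00 in shARNT and -0.29 in shBMAL1. Once those left-out subunits were added to the sets, ORC spread more widely in shBMAL1 and POLE more widely in shARNT. These ranges were not tested, and the fold changes of all genes were also wider in shARNT.

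Levels per transcript length placed POLD2 first in shControl, at 130 CPM per kb of canonical transcript, followed by MCM7 (89.9), TYMS (59.7) and RFC2 (56.8), and E2F2 last (0.0815). In shBMAL1 POLD2 (142) and MCM7 (69.2) again came first. In shARNT MCM7 (119) came first, ahead of POLD2 (54.1) and PCNA (52.8), while DNMT1 moved from 13.5 to 33.2 CPM per kb. Replicate spread was widest for E2F2, with coefficients of variation of 93.0% in shControl and 56.2% in shBMAL1, and in shARNT for GINS4 (19.4%).

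**Figure D5:**
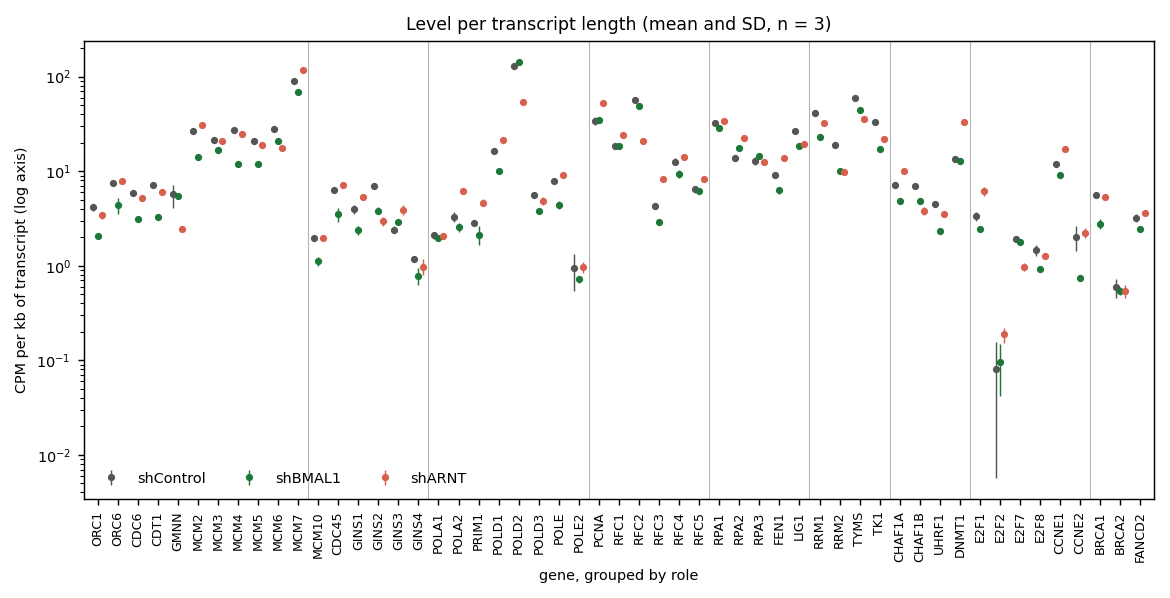
Mean level of each of the 53 genes in CPM per kb of canonical transcript (y axis, log scale) with SD (n = 3) in shControl (grey), shBMAL1 (green) and shARNT (red), grouped by role. Levels run from 0.0815 for E2F2 to 130 for POLD2 in shControl, and most green points lie under the grey ones.

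Genes with and without the E2F letters shown above were both mostly lower in shBMAL1. Of the 23 genes with these letters, 16 were called lower and 1 higher in shBMAL1 (median -0.44). Of the 22 tested genes with an entry and without the letters, 17 were lower and 1 higher (median -0.53). Among all genes tested, 31.5% were lower in shBMAL1 and 31.9% higher. In the direct comparison, 16 were higher and 4 lower both with and without the letters (medians 0.63 and 0.54). The shares of all genes there were 40.1% higher and 41.1% lower. In shARNT against shControl, 12 were higher and 8 lower with the letters (median 0.19), and 7 higher and 8 lower without (median 0.03). All genes had 40.5% higher and 41.3% lower in that comparison. These counts were not tested against each other. A gene without the letters lacked only these exact strings, so whether E2F factors bind it was not judged. E2F1 and CDT1 both carry such letters close to the start, and both fell in shBMAL1, while in shARNT E2F1 rose and CDT1 fell (the latter not called with library size alone).

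Other replication genes outside the 54 showed a smaller shift. Of 27 tested, 12 were called lower (44.4%) and 2 higher (7.41%) in shBMAL1 (median log2 fold change -0.12). Of all genes tested, 31.5% were called lower there and 31.9% higher. In shARNT 13 were higher (48.1%) and 11 lower (40.7%, median 0.02), near the 40.5% and 41.3% of all genes. The helicase RECQL4 (-1.11 ± 0.057), the alternative clamp loader subunit CHTF18 (-0.84 ± 0.073) and the checkpoint adaptor CLSPN (-0.79 ± 0.12) fell most in shBMAL1 (adjusted p = 2.27e-12, 5.54e-09 and 9.1e-06). In shARNT the largest changes were POLD4, a further subunit of polymerase delta, lower (-1.26 ± 0.048, adjusted p = 2.07e-15), and the fork protein TIMELESS and the nuclease DNA2, both higher (1.19 ± 0.057 and 1.05 ± 0.098, adjusted p = 1.07e-13 and 4.74e-09).

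Genes that control RB and E2F moved in both directions. Of 26 tested, 14 were lower (53.8%) and 8 higher (30.8%) in shBMAL1 (median -0.19). Of all genes tested, 31.5% were called lower there and 31.9% higher. In shARNT 16 were higher (61.5%) and 7 lower (26.9%, median 0.40), where 40.5% of all genes were called higher and 41.3% lower. The counts of this list were not repeated with other scalings. CDKN1A, the CDK inhibitor p21, rose in both depletions, from 82.1 ± 1.5 CPM in shControl to 171 ± 12 in shBMAL1 (1.06 ± 0.047, adjusted p = 2.5e-13) and 205 ± 5.7 in shARNT (1.32 ± 0.047, adjusted p = 9.23e-16). CDK6, a kinase that phosphorylates RB, was low in shControl (2.95 ± 0.21 CPM) and rose in shBMAL1 (1.32 ± 0.15, adjusted p = 2.52e-07) and in shARNT (1.97 ± 0.14, adjusted p = 9.72e-11). The related kinase CDK4, at 159 ± 1.0 CPM in shControl, fell in shBMAL1 (-0.36 ± 0.043, adjusted p = 4.89e-07) and rose in shARNT (0.39 ± 0.042, adjusted p = 3.9e-08). CDK2, the partner of cyclin E, fell from 35.4 ± 1.6 CPM to 21.0 ± 1.5 in shBMAL1 (-0.76 ± 0.081, adjusted p = 1.13e-07) and 10.8 ± 1.4 in shARNT (-1.71 ± 0.085, adjusted p = 1.9e-13). E2F6, a repressor of the E2F family, rose more in shARNT (1.5 ± 0.074, adjusted p = 1.7e-13) than in shBMAL1 (0.65 ± 0.077, adjusted p = 5.15e-07), with a direct difference of 0.86 (adjusted p = 7.28e-10).

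Mitosis genes, given as a reference for the share of dividing cells, were also lower in shBMAL1. Of the 10 genes, 9 were called lower (90%) and none higher in shBMAL1 (median -0.35), where 31.5% of all genes were called lower. In shARNT 4 were higher (40%) and 4 lower (40%, median -0.09), near the 40.5% and 41.3% of all genes. AURKB fell in both, to 47.0% of control in shBMAL1 (-1.09 ± 0.098, adjusted p = 9.87e-09) and 59.5% in shARNT (-0.75 ± 0.095, adjusted p = 4.59e-07). TOP2A was at 83.9% in shBMAL1 and 51.4% in shARNT (-0.25 ± 0.057 and -0.96 ± 0.058, adjusted p = 0.000774 and 4.7e-12). MKI67 and AURKA both fell to 69.6% in shBMAL1 (adjusted p = 1.13e-05 and 1.48e-06), and CCNB1 rose to 144% in shARNT (0.53 ± 0.055, adjusted p = 2.68e-08). The part that a changed share of dividing cells had in the levels of the replication genes was not tested.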

How the data were processed

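RNA of A498 cells (3 libraries each of shControl, shBMAL1 and shARNT) had been made into stranded mRNA libraries and sequenced by BGI. The authors deposited expected counts, total reads per gene without normalization. Their methods name SeqMan NGen and ArrayStar on GRCh37, whereas the submitters' processing notes name STAR, DESeq2 and hg38, so the counting tool and build are not settled, and neither are the use of strand and whether reads or pairs were counted. Genes that share exons or have pseudogene copies are therefore less certain.

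A value of 0.05 stood for no reads and was set to 0, and values were rounded. Rows with the same name (43 names) were summed, and 28 date-like names were kept apart by row. All sample columns were used.

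Groups were taken from the sample titles. Tests were run with edgeR 4.0.16 in R 4.3.3 (quasi-likelihood) on all 9 libraries with TMM scaling, filterByExpr and Benjamini-Hochberg adjustment over 15551 genes, with calls at an adjusted p under 0.1 (common dispersion 0.00311). CPM are counts over the TMM-scaled library size. Transcript lengths and gene overlaps of at least 100 exon bases were read from GENCODE lifted to GRCh37, and promoters from RefSeq. The script was tested on simulated counts, in which few genes changed and as many rose as fell, so that test cannot check the scaling. Alternatives were other scalings, no filter, DESeq2 1.42.0, the 6 libraries compared, a replicate block, halved counts, a minimum fold change of 1.5 and leaving out each library. The mean chi-square per gene between replicates was 2.16 to 2.51 for genes with a mean of 10 to 50 counts, above the 1 of single read counting (reads counted from both mates would raise it too), and p-values measure only the spread between these samples.

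Members and lists were chosen with earlier results of these data known. Genes given in every library were a fixed set of 16 and the 4 called members with the largest rise and fall in each depletion. Outside the 54, ARNT, BMAL1 and the 3 called genes of each further list with the largest change per depletion are named. Named as well are ORC2 to ORC5, POLE3 and POLE4, as further subunits of complexes that hold members, and CDK4 beside CDK6.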

Additional observations from a re-analysis of the deposited data

Results flagged for a closer look

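In 14 of the 53 replication genes (26.4%) the called changes against the shared shControl libraries had opposite signs in the depletions, as they did in 19.4% of all 15551 genes tested. The log2 differences between shARNT and shBMAL1 are given as a description, since this choice of genes fixes their direction. In 13 of the genes, lower in shBMAL1 and higher in shARNT, the differences were 1.10 for MCM2, 0.78 for MCM7, 1.17 for GINS1, 1.27 for POLA2, 1.12 for PRIM1, 1.08 for POLD1, 1.06 for POLE, 1.52 for RFC3, 1.14 for FEN1, 1.08 for CHAF1A, 1.33 for E2F1, 0.92 for CCNE1 and 0.57 for FANCD2. Only POLD2 of the 14 went the other way, with -1.39. For PRIM1, FANCD2 and POLD2, 1 of the changes against shControl rested on single libraries, as given with their values.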

How the results depend on the processing

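The counts in shBMAL1 (4 higher, 39 lower) were the least sensitive to scaling, and those in shARNT the most. With library size alone, shARNT against shControl gave 31 higher and 12 lower with a median of 0.24, and the median of the direct comparison was 0.76. In shARNT against shControl that scaling turned the sign of BRCA1 (0.17), CDC6 (0.073), MCM10 (0.24), MCM3 (0.20), MCM4 (0.11), MCM5 (0.090), POLA1 (0.22), POLD3 (0.047) and RPA3 (0.21), and in the direct comparison that of RPA3 (0.0063) and RRM2 (0.15), and it follows from the shift of all genes by the scaling. A minimum fold change of 1.5 left 10 higher and 9 lower in shARNT, where 3813 of all 15551 genes were higher and 4486 lower. In shBMAL1 it left 0 higher and 21 lower, where 1735 of all genes were higher and 1921 lower. The direct comparison kept 26 higher and 4 lower, where 3753 of all genes were higher and 4424 lower. Without 1 library at a time, the higher genes in shBMAL1 numbered 2 to 4 (2 without shControl replicate 1, shBMAL1 replicate 1 or shBMAL1 replicate 2, where the cause was not tested), and the medians were -0.065 to 0.047 in shARNT and -0.53 to -0.46 in shBMAL1. Of 159 values of single genes, 158 kept their direction and side of the threshold with DESeq2 size factors, in the DESeq2 test and in the fit of 6 libraries, 157 without the low-count filter and 159 with halved counts. With library size alone 134 did so, 5 lost and 9 gained a call, and 11 changed sign. Deviations of libraries with the same replicate number had correlations of -0.041 to 0.075, and other pairs -0.077 to 0.094. No shared deviation by number was thus seen, but these correlations cannot show whether libraries of the same number were handled together. With the replicate block the counts were 20 higher and 19 lower in shARNT, 4 and 39 in shBMAL1 and 38 and 9 in the direct comparison, and all 159 single values kept their side. The calls of E2F2 and POLE2, the genes with the lowest levels, changed when single libraries were left out but not with halved counts.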
